A study of Mus musculus with 9 samples.

Results

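Transcript levels of 10 genes of the Notch pathway were examined in endothelial cells sorted from fetal mouse heart ventricles. The genes were the receptors Notch1, Notch2 and Notch4, the ligands Dll4, Jag1 and Jag2, and the transcriptional targets Hey1, Hey2, Heyl and Hes1. They were taken by symbol from the 41214 features of the deposited table, and each of the 10 symbols matched 1 Ensembl gene. All 10 passed the filter on low counts, which kept 17104 genes.

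Notch receptors are single-pass membrane proteins that are cleaved when a Delta-like or Jagged ligand on a neighbouring cell binds them. The intracellular domain then enters the nucleus, joins the DNA-binding protein RBPJ and a Mastermind co-activator, and switches on genes of the Hes and Hey families, which encode basic helix-loop-helix repressors. In developing vessels the pathway is best known for arterial fate and for restraint of tip cells, and in the heart for trabeculation and valve formation signalled from the endocardium.

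Sorted populations, 3 in number with 3 libraries each, were compared: coronary endothelium enriched for intramyocardial arteries and capillaries (arterial), coronary endothelium enriched for subepicardial veins (venous), and endocardium, the inner lining of the chambers. All came from embryos at E17.5 that carried Nes-Gfp(Tg/0) together with Nes-CreER(Tg/0) and the R26 (tom/+) reporter and had received 0.1 ug tamoxifen at E15.5. Both transgenes follow Nestin regulatory sequences, so that Tomato marks cells in which the Nes-driven recombinase had been active. Viable Ter119-, CD45- and CD31+ cells with GFP were sorted from ventricles, the arterial gate as Emcn-low and Tomato+, the venous gate as Emcn-low, Tomato- and GFP-low. The endocardial gate as written sets no condition on Emcn or Tomato, so that other GFP+ endothelium may be in it. Whether replicates came from separate litters or pools is not stated, and p-values measure the spread between these libraries.

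Library totals ran from 12750553 to 19474419 counts. Levels are CPM, counts scaled to library size after TMM normalisation, with the SD over 3 libraries. Summed markers were ordered as the labels say for arteries and endocardium, though not every marker was. Bmx of the arterial list averaged 19.2, 7.22 and 81.6 CPM in arterial, venous and endocardial libraries. Tbx20 of the endocardial list averaged 14.2, 136 and 88.0 CPM in the same order. The lists were chosen with earlier results of these data known, so the order of the sums is no independent check. The summed level of 8 arterial markers was 1021 to 1177 CPM in arterial libraries, 437 to 455 in venous libraries and 413 to 491 in endocardial libraries. That of 7 endocardial markers was 94.6 to 110, 285 to 413 and 3813 to 4568 CPM in the same populations. The 5 venous markers summed to 802 to 881 CPM in arterial libraries, 1265 to 1398 in venous libraries and 998 to 1290 in endocardial libraries. Emcn is 1 of these 5 and averaged 199, 249 and 679 CPM in the same order. As the arterial and venous gates were set on Emcn, the venous sum is not independent of the sort. The venous factor gene Nr2f2 was highest in endocardial libraries (19.5, 54.8 and 123 CPM on average). Lymphatic markers summed to 78.1 to 109, 118 to 198 and 552 to 649 CPM, and 5 capillary markers to 4055 to 4638, 3633 to 4745 and 403 to 444 CPM. The part of other endothelium in the endocardial libraries was not tested. Endocardial replicate 1 stood apart from the other 2 of its group on the second principal component, at 139 against 1.79 and -16.1, and the arterial libraries were spread on it too, at 36.1, -49.8 and 54.9. In sorted bulk samples, fewer cells of a type and less RNA per cell cannot be told apart.

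Arterial libraries had the highest levels of Hey1 and Jag1, endocardial libraries the highest of Notch2 and the lowest of Jag2 and Dll4. The mean of Dll4 was also highest in arterial libraries, but these overlapped the venous ones and that difference was not called. Of the 10 genes, 2 rose and none fell in arterial over venous libraries at an adjusted p under 0.05 (edgeR), against 0.31% and 0.76% of all genes tested (1.07% in either direction). The 8 others were not called, 2 of them with an unadjusted p under 0.05, and their values follow gene by gene. In arterial over endocardial libraries 4 rose and 1 fell, against 5.92% and 5.75% of all genes (11.7% together), and in venous over endocardial libraries 3 rose and 1 fell, against 5.81% and 4.44% (10.2% together). The libraries of the 2 populations did not overlap for 3, 7 and 6 of the 10 genes in these comparisons, against 17.3%, 25.7% and 28.2% of all genes. Median log2 fold changes of the 10 genes were 0.17, 0.99 and 0.20, beside 0.03, 0.01 and -0.10 over all genes. The 3 comparisons share libraries in pairs and are not independent of each other.

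**Figure D1:**
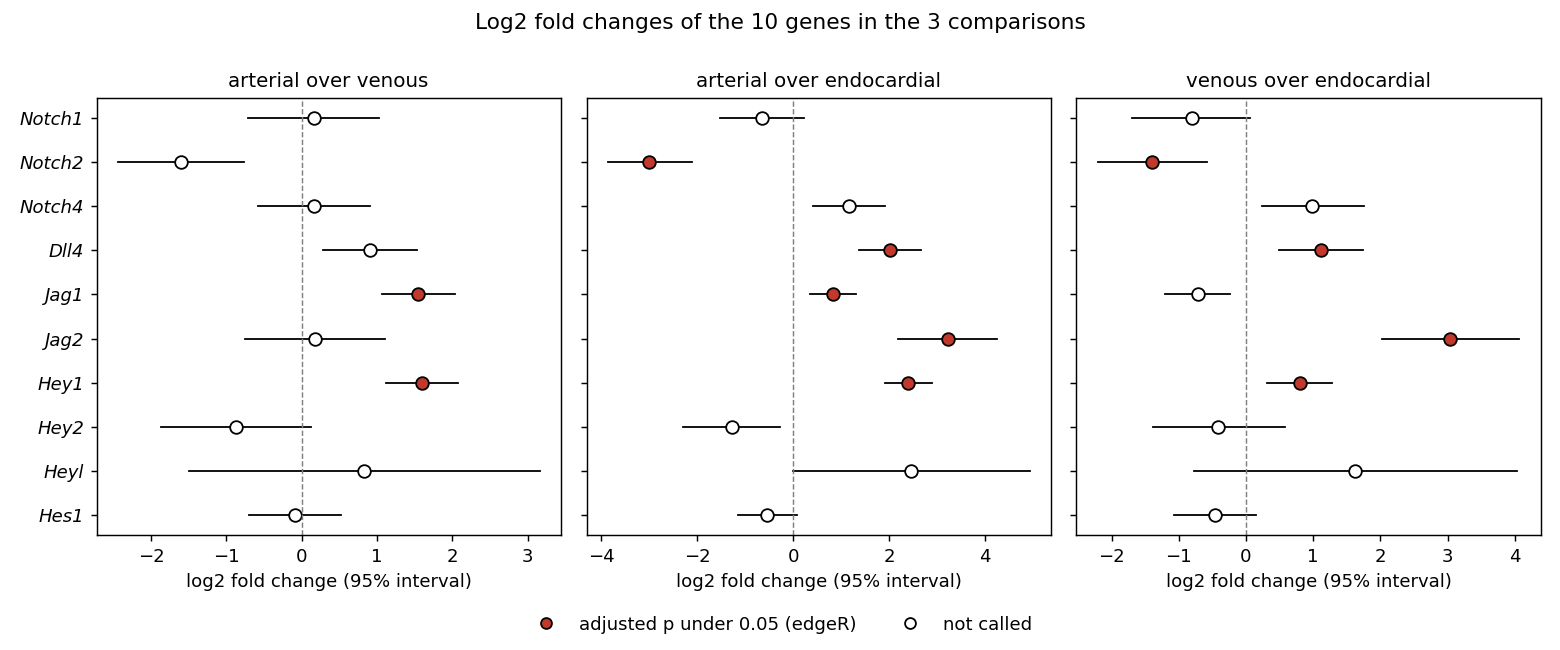
Log2 fold changes with 95% intervals of the 10 genes for arterial over venous, arterial over endocardial and venous over endocardial libraries (n = 3 each), red where the adjusted p was under 0.05 in edgeR. Hey1 lies right of 0 in all 3 panels and Notch2 lies left of 0 in all 3, at -1.60, -3.00 and -1.40.

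The receptors differed in kind. Notch1 (chromosome 2, 26457903 to 26516663, minus strand, GRCm38), the main endothelial receptor of arterial fate, had 186, 330 and 353 CPM in arterial libraries, 208, 351 and 219 CPM in venous libraries and 243, 543 and 581 CPM in endocardial libraries. The populations overlapped, as endocardial replicate 1 lay within the coronary range while the other 2 endocardial libraries lay above all coronary ones. Within each of the 3 batches the endocardial library was above both coronary ones. Of all genes, 41.3% and 44% kept the same direction in the 3 batches for arterial and venous over endocardial libraries. Log2 fold changes were 0.16 ± 0.38 (SE; 95% interval -0.71 to 1.03) for arterial over venous, -0.65 ± 0.38 for arterial over endocardial and -0.81 ± 0.38 for venous over endocardial libraries, with adjusted p of 0.975, 0.408 and 0.265 (edgeR). With the batch number as a block the last 2 passed, at 0.0378 and 0.0155. With the block and a correction for GC content they stood at 0.0753 and 0.0342, so that only venous over endocardial passed. Venous over endocardial also passed without endocardial replicate 1 (log2 -1.11, adjusted p = 0.0304). The opposite-strand genes Gm13568 and 0610009E02Rik share 414 and 1068 exon bases with Notch1 and held 2943 and 4380 counts over 9 libraries, against 45824 for Notch1.

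Notch2 (chromosome 3, 98013527 to 98150361, plus strand) encodes a receptor known for roles in neural crest, valve and smooth muscle cells of the heart. It had 3.02, 3.74 and 8.31 CPM in arterial libraries, 14.6, 15.7 and 15.3 CPM in venous libraries and 22.6, 52.5 and 45.2 CPM in endocardial libraries. No 2 populations overlapped, so that the 9 libraries fell into a clean order with arterial lowest and endocardial highest. It was 7.98-fold lower in arterial than in endocardial libraries (log2 -3.00 ± 0.41, adjusted p = 7.67e-05, edgeR) and 2.63-fold lower in venous than in endocardial ones (log2 -1.40 ± 0.39, adjusted p = 0.0278). The arterial to venous difference of -1.60 ± 0.40 missed the threshold (adjusted p = 0.0752) and passed it with the block (0.015), without arterial replicate 3 (0.0104) and without endocardial replicate 1 (0.0183). The venous to endocardial call ended without any of the 3 venous libraries or without endocardial replicates 2 or 3, at adjusted p of 0.0649 to 0.138. Fibroblast markers were also lowest in arterial libraries: 8 of them summed to 100 to 117 CPM in arterial libraries, 1379 to 1613 in venous libraries and 1612 to 1955 in endocardial libraries, with none at 0 in every library of a population and Tcf21 under 1 CPM in the 3 arterial libraries. All 8 had a lower mean in arterial than in venous libraries, and 6 of 8 were called lower, against 0.76% of all genes. Between venous and endocardial libraries 2 were called higher in venous and 3 lower, against 5.81% and 4.44% of all genes. Col3a1 stood at 526 and 289 CPM and Postn, the largest part of the sum, at 574 and 1047 CPM. The part of fibroblast markers in the level of Notch2 was not tested.

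Notch4 (chromosome 17, 34564268 to 34588503, plus strand), a receptor largely restricted to endothelium, ran the other way. It had 122, 157 and 158 CPM in arterial libraries, 95, 169 and 124 CPM in venous libraries and 31.3, 79.4 and 84.1 CPM in endocardial libraries. Every coronary library was above every endocardial one, while arterial and venous libraries overlapped. Differences were 1.16 ± 0.34 on the log2 scale for arterial over endocardial (adjusted p = 0.053, edgeR) and 0.99 ± 0.34 for venous over endocardial libraries (0.106), both short of the threshold. With the block both passed, at 0.000302 and 0.00183, and arterial over endocardial also passed without venous replicate 1 (0.0481) or endocardial replicate 1 (0.0186). In each comparison the coronary library was higher in 3 of 3 batches. Arterial over venous was 0.17 ± 0.34 (95% interval -0.58 to 0.91, adjusted p = 0.967).

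**Figure D2:**
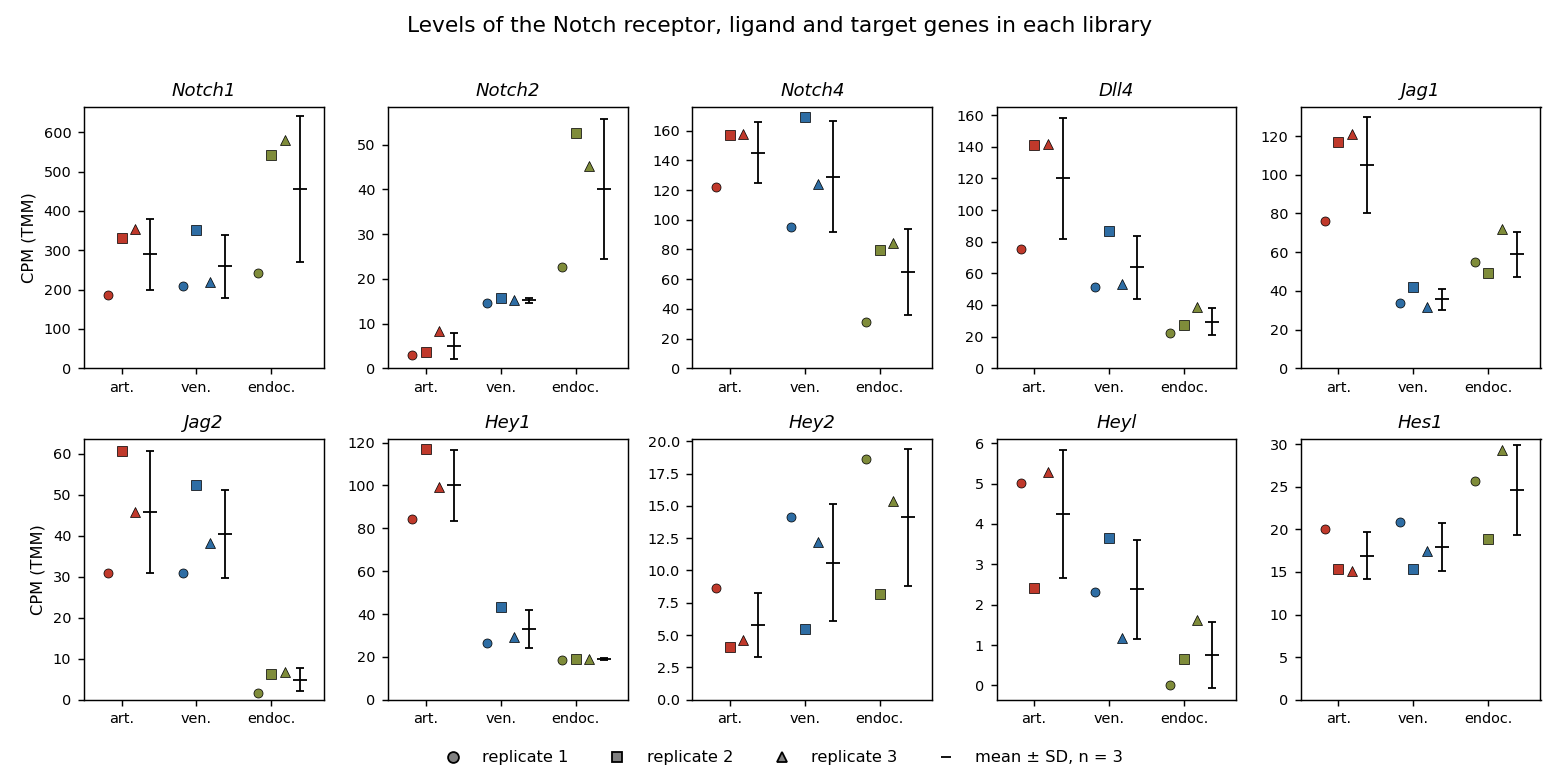
Levels in CPM (linear axes, 1 panel per gene) in arterial (art.), venous (ven.) and endocardial (endoc.) libraries; symbols mark replicates 1 to 3, and bars give mean ± SD (n = 3). Hey1 separates all 3 populations from arterial down to endocardial, Notch2 separates them in the opposite order, and Jag2 stands at 1.6 to 6.79 CPM in endocardial libraries against 30.9 to 60.8 CPM in coronary ones.

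To compare genes with each other, CPM were divided by the length of merged exons in kb. Of the summed level of these 3 receptor genes on that scale, without Notch3, Notch1 made up 51.6% ± 4.94 in arterial libraries, 50.9% ± 2.76 in venous libraries and 73.3% ± 0.985 in endocardial libraries (SD, n = 3). Notch4 took 47.2% ± 5.16, 44.9% ± 2.73 and 18.1% ± 1.08 in the same order. On this length, coronary libraries held Notch1 and Notch4 at near-equal shares and endocardial libraries mostly Notch1. Per kb of the longest transcript the coronary shares were less equal. Notch1 then held 56.7% ± 4.9 and Notch4 42.4% ± 5.06 in arterial libraries, and 56.3% ± 2.73 and 40.5% ± 2.68 in venous ones. Notch2 was the minor receptor throughout, at 1.17% ± 0.477, 4.13% ± 0.918 and 8.62% ± 0.918. Shares of Notch1 in endocardial libraries (72.2% to 74.1%) did not overlap those in coronary ones (45.9% to 55.0%), endocardial replicate 1 included. The shares were not tested.

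**Figure D3:**
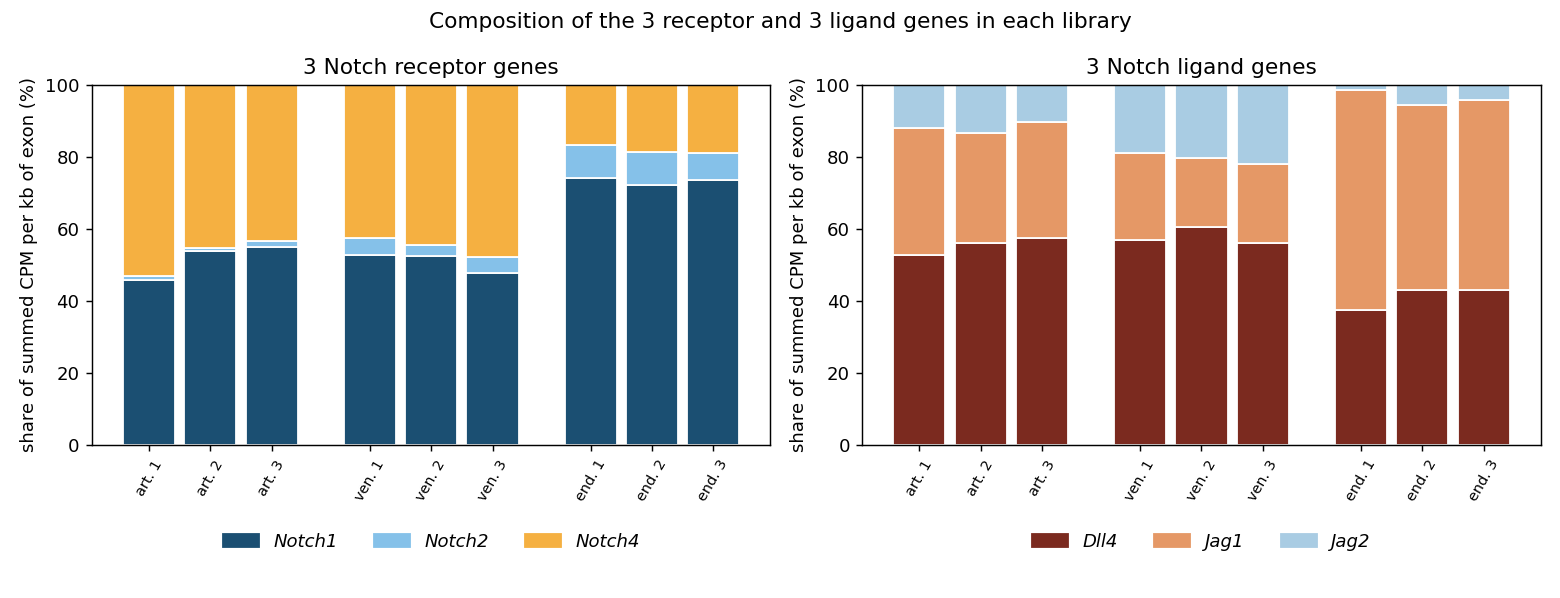
Share (%) of the summed CPM per kb of exon held by each receptor gene (left) and each ligand gene (right) in each library, in the order arterial, venous, endocardial. Notch1 holds 72.2% to 74.1% of the receptor level in endocardial libraries against 45.9% to 55.0% in coronary ones, and among these 3 ligand genes, without Dll1, Jag1 holds 51.5% to 61.0% in endocardial libraries.

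Among the ligands, Jag1 (chromosome 2, 137081456 to 137116644, minus strand), the Jagged ligand of arterial endothelium and of endocardium, separated the populations. Its level was 76, 117 and 121 CPM in arterial libraries, 33.5, 41.9 and 31.6 CPM in venous libraries and 55.0, 49.4 and 71.9 CPM in endocardial libraries. No populations overlapped, with arterial highest and venous lowest, and the venous libraries lay closest together. It was 2.94-fold higher in arterial than in venous libraries (log2 1.55 ± 0.23, adjusted p = 0.00146, edgeR), and this call held without any single library (0.000149 to 0.00969). Over endocardial libraries the arterial level was 1.78-fold higher (log2 0.83 ± 0.23, adjusted p = 0.0217). This difference lost its call when arterial replicate 2 (0.126), arterial replicate 3 (0.103) or endocardial replicate 2 (0.12) was left out, and with a correction for GC content (0.0538). The venous to endocardial difference of -0.72 ± 0.23 stood at an adjusted p of 0.0537, at 0.0313 with the block and at 0.0294 without arterial replicate 1.

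Dll4 (chromosome 2, 119325784 to 119335962, plus strand) encodes the Delta-like ligand of arterial and tip cell endothelium. Its level was 75.4, 141 and 142 CPM in arterial libraries, 51.6, 86.5 and 53.4 CPM in venous libraries and 22.4, 27.3 and 38.8 CPM in endocardial libraries. Endocardial libraries lay below every coronary one, whereas arterial replicate 1 lay below venous replicate 2. Dll4 was 4.05-fold higher in arterial than in endocardial libraries (log2 2.02 ± 0.30, adjusted p = 0.000292, edgeR) and 2.16-fold higher in venous than in endocardial ones (log2 1.11 ± 0.29, adjusted p = 0.0247). The second call ended without venous replicate 2 (0.105) or endocardial replicates 1 (0.079) or 2 (0.116). Arterial over venous was 0.91 ± 0.29 (95% interval 0.28 to 1.53, higher in 3 of 3 batches), with an adjusted p of 0.282 over all genes, 0.0365 without arterial replicate 1 and 0.0582 with the block. A noncoding gene on the opposite strand, Gm14207, shares 214 exon bases with Dll4, and strandedness is not given, so that some reads of the pair may be exchanged (1251 against 9968 counts over 9 libraries).

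Jag2 (chromosome 12, 112907819 to 112929776, minus strand), a second Jagged ligand, gave the widest gap. It had 30.9, 60.8 and 45.9 CPM in arterial libraries, 31.0, 52.3 and 38.2 CPM in venous libraries and 1.6, 6.27 and 6.79 CPM in endocardial libraries. The arterial and venous values interleaved, and endocardial values were far below both. Jag2 was 9.34-fold higher in arterial (log2 3.22 ± 0.47, adjusted p = 0.000559, edgeR) and 8.25-fold higher in venous than in endocardial libraries (log2 3.04 ± 0.47, adjusted p = 0.00107). Both calls held without any single library, with adjusted p up to 0.00726 and 0.0111. Between arterial and venous libraries the difference was 0.18 ± 0.43 (95% interval -0.75 to 1.11, adjusted p = 0.975, edgeR).

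Composition was first taken over these 3 ligand genes alone. Per kb of exon, Dll4 held 55.4% ± 2.34 of their summed level in arterial libraries, 57.7% ± 2.38 in venous libraries and 41.2% ± 3.17 in endocardial libraries. Jag1 held 32.7% ± 2.29, 21.9% ± 2.5 and 55.1% ± 5.14, and Jag2 held 11.8% ± 1.53, 20.4% ± 1.66 and 3.71% ± 2.03. The endocardial shares depended on this choice of genes. With the Delta ligand gene Dll1 added to the sum, a step chosen after the values were seen, Dll1 itself held 2.61% ± 1.7, 10% ± 2.51 and 42.8% ± 6.12 in arterial, venous and endocardial libraries and had the largest share in each endocardial library. Dll4 then held 54.0% ± 3.2, 52.0% ± 3.61 and 23.7% ± 4.1, and Jag1 31.9% ± 1.83, 19.6% ± 1.8 and 31.3% ± 2.09. In both sums Dll4 led in arterial and venous libraries, and the Jag1 shares of arterial and venous libraries did not overlap.

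Of the targets, Hey1 (chromosome 3, 8663359 to 8667256, minus strand) showed the clearest gradient. Its repressor acts in arterial specification together with that of Hey2. Its level was 84.3, 117 and 99.4 CPM in arterial libraries, 26.5, 43.2 and 29.4 CPM in venous libraries and 18.6, 19.2 and 19.1 CPM in endocardial libraries. All 3 populations were separate, and the endocardial values had an SD of 0.341 CPM. Hey1 was 3.04-fold higher in arterial than in venous libraries (log2 1.60 ± 0.23, adjusted p = 0.00102, edgeR) and 5.29-fold higher than in endocardial ones (log2 2.40 ± 0.23, adjusted p = 1.83e-06). Both calls held without any single library. Venous over endocardial was 1.74-fold (log2 0.80 ± 0.23, adjusted p = 0.0307), and that call ended without venous replicate 2 (0.249), without any of the 3 endocardial libraries (0.0518 to 0.0783) or with the other population left out of the fit (0.0725).

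Hey2 (chromosome 10, 30832359 to 30842801, minus strand), known as gridlock in zebrafish, where it is needed for arterial development, did not follow Hey1. It had 8.62, 4.09 and 4.63 CPM in arterial libraries, 14.1, 5.5 and 12.2 CPM in venous libraries and 18.6, 8.21 and 15.4 CPM in endocardial libraries. In each batch the arterial library was lowest and the endocardial one highest, while the populations overlapped, replicate 2 being low in all of them. Log2 fold changes were -0.87 ± 0.47 for arterial over venous (adjusted p = 0.673, edgeR), -1.28 ± 0.47 for arterial over endocardial (0.103) and -0.41 ± 0.46 for venous over endocardial libraries (0.69). Arterial over endocardial passed with the block (0.045).

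Hes1 (chromosome 16, 30064384 to 30067796, plus strand), a broadly expressed target that also answers to other signals, was not called in any comparison. Its level was 20.0, 15.4 and 15.1 CPM in arterial libraries, 20.9, 15.4 and 17.4 CPM in venous libraries and 25.7, 18.9 and 29.3 CPM in endocardial libraries. Populations overlapped in every pair, with means of 16.9 ± 2.75, 17.9 ± 2.79 and 24.6 ± 5.27 CPM. Arterial over venous was -0.09 ± 0.29 (95% interval -0.70 to 0.52, adjusted p = 0.984, edgeR), arterial over endocardial -0.54 ± 0.29 (0.304) and venous over endocardial -0.46 ± 0.29 (0.396). Heyl (chromosome 4, 123233556 to 123249875, plus strand), a family member best known from smooth muscle, had 0 to 72 counts per library. It stood at 5.01, 2.42 and 5.29 CPM in arterial libraries, 2.31, 3.64 and 1.18 CPM in venous libraries and 0, 0.649 and 1.63 CPM in endocardial libraries, where the count of 0 allows up to 0.229 CPM (3 counts). None of its differences was called (log2 2.46 ± 1.16 for arterial over endocardial, adjusted p = 0.229). The summed level of 10 mural cell markers ran in the same order, at 537 to 847, 241 to 347 and 83.0 to 151 CPM, mostly Abcc9. Single markers did not all follow it: Pdgfrb averaged 14.8, 9.4 and 40.8 CPM and Tagln 2.43, 5.46 and 1.93 CPM in arterial, venous and endocardial libraries. Myh11 was at 0 in 2 endocardial libraries. Of the 10, 1 was called higher in arterial than in venous libraries and 3 higher than in endocardial ones, against 0.31% and 5.92% of all genes. In venous over endocardial libraries 2 were called higher and 1 lower, against 5.81% and 4.44%. The part of mural markers in the level of Heyl was not tested.

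Promoter windows from RefSeq (GRCm38.p6, 250 bases before to 50 after the annotated start) were at hand for 7 of the 10 genes, and had no entry for Hey1, Heyl and Hes1. They were searched on both strands for TGGGAA, the core bound by RBPJ, for the longer form GTGGGAA, which contains it, and for the E-box CACGTG bound by Hes and Hey repressors. Of 32851 windows of the same length, 25.6% held TGGGAA, 6.38% GTGGGAA and 7.15% CACGTG. Hey2 was the only one of the 7 with a match. It held GTGGGAA on each strand, with its leftmost base at -207 on the opposite strand and at -4 on the strand of the gene, counted from the annotated start, and no CACGTG. Hey2 is shown as the target with matches, and Dll4 and Jag1 as examples of ligand genes, with no match for these letters. Each ligand gene, Jag2 included, had its highest mean in arterial libraries. In the unblocked fit of all 9 libraries only Jag1 among them was called over venous ones. Capitals mark TGGGAA or its reverse complement TTCCCA; windows lie at chr10:30842734-30843033 (minus strand), chr2:119325534-119325833 (plus strand) and chr2:137116471-137116770 (minus strand).
Hey2: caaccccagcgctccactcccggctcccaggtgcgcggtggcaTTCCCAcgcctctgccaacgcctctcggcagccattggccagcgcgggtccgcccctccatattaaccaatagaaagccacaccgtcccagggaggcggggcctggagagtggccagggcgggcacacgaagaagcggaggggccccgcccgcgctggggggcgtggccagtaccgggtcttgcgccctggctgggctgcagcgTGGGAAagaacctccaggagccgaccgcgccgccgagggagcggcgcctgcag
Dll4: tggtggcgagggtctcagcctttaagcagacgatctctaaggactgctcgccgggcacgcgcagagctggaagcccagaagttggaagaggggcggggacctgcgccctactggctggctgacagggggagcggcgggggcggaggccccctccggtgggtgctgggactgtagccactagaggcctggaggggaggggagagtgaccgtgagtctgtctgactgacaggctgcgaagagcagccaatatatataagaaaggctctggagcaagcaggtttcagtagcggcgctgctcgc
Jag1: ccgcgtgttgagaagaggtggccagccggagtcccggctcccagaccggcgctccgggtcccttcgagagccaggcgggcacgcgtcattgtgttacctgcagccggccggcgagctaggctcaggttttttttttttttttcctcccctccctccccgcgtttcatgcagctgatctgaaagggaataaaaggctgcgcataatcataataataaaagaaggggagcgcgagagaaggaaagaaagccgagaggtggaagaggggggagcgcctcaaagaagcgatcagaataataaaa
The matches describe letters in these windows and say nothing of binding in these cells. The gene with matches, Hey2, was called only for arterial over endocardial libraries, in the fits with the block.

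A list of 60 other pathway genes was read from the same fits, of which 56 passed the filter (Dlk2, Dner, Hes2 and Hes5 did not). In arterial over venous libraries 0 rose, 2 fell and 54 were not called. In arterial over endocardial libraries 5 rose and 5 fell, and in venous over endocardial libraries 2 rose and 8 fell, with 46 not called in each. These are 2, 10 and 10 of 56 genes, to be read beside the 1.07%, 11.7% and 10.2% of all genes given above. List medians were 0.04, -0.10 and -0.16 on the log2 scale, beside 0.03, 0.01 and -0.10 over all genes.

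Nrarp, a direct Notch target that feeds back on the receptor's intracellular domain, had 52.6, 73.5 and 75.3 CPM in arterial libraries, 36.1, 65.7 and 51.6 CPM in venous libraries and 11.6, 20.8 and 13.8 CPM in endocardial libraries. Coronary and endocardial libraries did not overlap, and arterial and venous ones did. Nrarp was 4.36-fold higher in arterial (adjusted p = 5.17e-05, edgeR) and 3.32-fold higher in venous than in endocardial libraries (adjusted p = 0.000486), with 0.39 ± 0.27 on the log2 scale between arterial and venous (adjusted p = 0.787). Mfng, a Fringe glycosyltransferase that modifies Notch receptors, showed the same split at 43.1 ± 10.6, 39.7 ± 7.39 and 11 ± 2.08 CPM in arterial, venous and endocardial libraries (3.90-fold and 3.59-fold over endocardial, adjusted p = 8.9e-05 and 0.000225). Its relative Lfng stood at 5.76 ± 1.78, 9.72 ± 2.89 and 2.29 ± 1.66 CPM and was not called, at 0.0604 for venous over endocardial libraries and 0.0491 there with the block.

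Dll1, the Delta ligand that is not among the 10 genes, was highest in endocardial libraries, with 7.3, 6.34 and 3.09 CPM in arterial libraries, 13, 12 and 13.4 CPM in venous libraries and 62.3, 52.7 and 56.9 CPM in endocardial libraries. No populations overlapped, and the means ran in the order opposite to those of Dll4. Its log2 fold changes were -3.36 ± 0.32 for arterial and -2.16 ± 0.30 for venous over endocardial libraries (adjusted p = 1.51e-06 and 0.000133, edgeR), and -1.19 ± 0.30 for arterial over venous (0.0882, and 0.0408 without arterial replicate 1). Dlk1, a noncanonical ligand, had 5.64 ± 0.861, 51.2 ± 20.1 and 84.2 ± 35.9 CPM in arterial, venous and endocardial libraries and fell in arterial against venous (log2 -3.18 ± 0.39, adjusted p = 0.00102) and endocardial ones (log2 -3.89 ± 0.40, adjusted p = 2.13e-05). Its venous to endocardial difference was -0.72 ± 0.35 (0.263, and 0.0438 with the block).

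Mfap5, a microfibril protein gene whose product can bind Jagged ligands, was lower in arterial (9.51 ± 1.74 CPM) and venous (21.4 ± 6.13 CPM) than in endocardial libraries (80.8 ± 18.1 CPM), at adjusted p of 1.02e-06 and 0.000136 (edgeR). Between arterial and venous libraries it stood at 0.0495, and at 0.0222 to 0.275 with 1 library left out, the call ending without arterial replicates 1 or 3, venous replicates 1 or 3 or endocardial replicate 3. Like Dlk1 and Mfap5, the fibroblast markers given beside Notch2 were lowest in arterial libraries, and their part was not tested. Aph1b, a subunit of gamma-secretase, the protease that releases the Notch intracellular domain, had 5.55 ± 2.92, 7.86 ± 0.387 and 37.4 ± 5.85 CPM (log2 -2.74 ± 0.40 and -2.25 ± 0.39 over endocardial, adjusted p = 0.000134 and 0.000928). Its near-identical mouse copy Aph1c may share reads with it, so that the level of either is uncertain. The co-repressor gene Tle1 was lower in arterial and venous libraries (39.8 ± 2.94 and 39.9 ± 6.0 CPM) than in endocardial ones (71.8 ± 4.73 CPM, adjusted p = 0.00757 and 0.00905); its venous to endocardial call ended without venous replicates 2 (0.0847) or 3 (0.0562) or endocardial replicate 2 (0.0513).

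Rbpj, which encodes the DNA-binding partner of all Notch receptors, was not called in any comparison. Its level was 66.5 ± 5.23 CPM in arterial libraries, 81.2 ± 12.3 in venous libraries and 92.1 ± 29.1 in endocardial libraries (adjusted p = 0.822, 0.222 and 0.707 for arterial over venous, arterial over endocardial and venous over endocardial, edgeR). Notch3, the receptor of mural cells, was low in all populations, at 4.78 ± 1.22, 5.68 ± 3.85 and 4.68 ± 0.703 CPM, and is 1 of the 10 mural markers summed above.

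**Figure D4:**
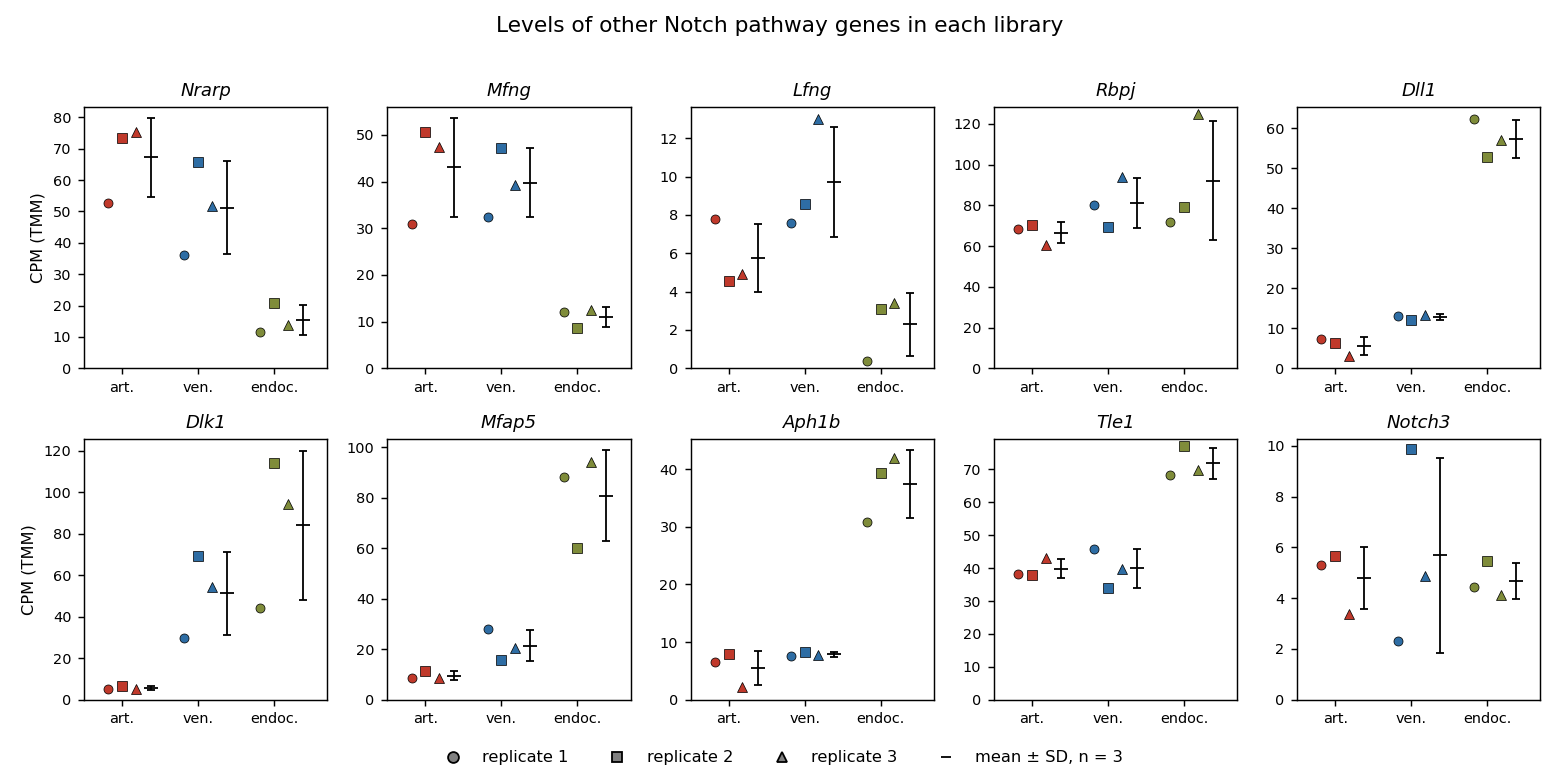
Levels in CPM (linear axes) of 10 other Notch pathway genes in arterial, venous and endocardial libraries; symbols mark replicates 1 to 3, and bars give mean ± SD (n = 3). Nrarp and Mfng are higher in both coronary populations than in endocardium, whereas Dll1, Mfap5, Aph1b and Tle1 are highest in endocardium.

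The libraries of batch 1 differed from the rest of their populations for most of the genes. Notch1, Notch2, Notch4, Dll4, Jag2 and Hey1 had their lowest value in replicate 1 in each of the 3 populations, as did 8.05% of all genes tested. Hey2 had its highest value there in each population, as did 7.31% of all genes. The deviations of replicate 1 from the population mean were -0.58, -0.27 and -0.81 on the log2 scale for Notch1 in arterial, venous and endocardial libraries. For Hey2 they were 0.64, 0.51 and 0.48. Other deviations were small, such as -0.03 for Hey1 in endocardial and -0.06 for Notch2 in venous libraries. Replicate 2 held the highest value of Hey1 and the lowest of Hey2 in each population, as it did for 4.56% and 3.83% of all genes. These patterns were chosen after the values were seen. Coding genes in the top decile of transcript GC content deviated in the same libraries by -0.06, -0.19 and -0.25 at the median, against 0.13, 0.12 and 0.16 for the bottom decile. The part of GC content in the deviations was not tested. Transcripts of Jag2 and Notch4 have 61.9% and 61.2% GC, near the top of coding genes (98.5th and 98th percentile), and that of Hey2 has 45.9% (percentile 30.2). Percentiles of the remaining genes were 87.6 for Notch1, 82 for Dll4, 79.1 for Heyl, 71 for Notch2, 65.1 for Hey1, 55.2 for Hes1 and 45 for Jag1. With GC content corrected, the arterial to endocardial difference was 1.37 for Notch4 (adjusted p = 0.000479) and 3.45 for Jag2 (2.98e-06).

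**Figure D5:**
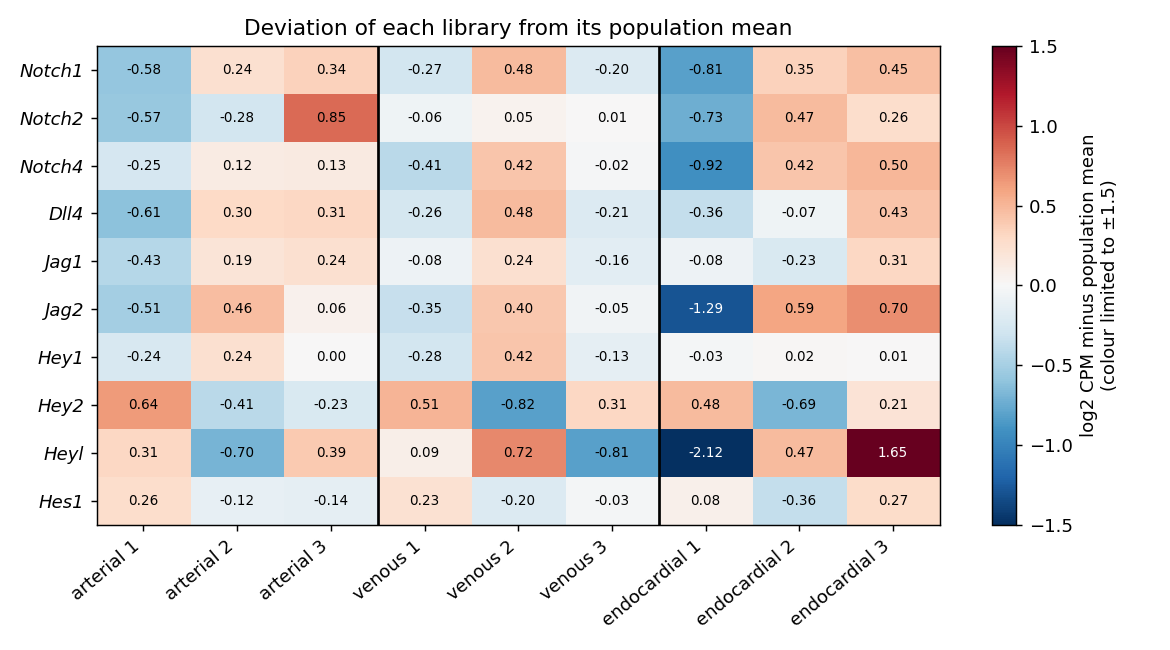
Deviation of each library from the mean of its population (log2 CPM) for the 10 genes, with black lines between arterial, venous and endocardial libraries. The replicate 1 columns are negative for Notch1, Notch2, Notch4, Dll4, Jag1, Jag2 and Hey1 and positive for Hey2 and Hes1.

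The genes whose log2 CPM profile over the 9 libraries was most like that of each gene were sought among 6619 candidates. These were genes with a symbol whose log2 CPM averaged 4 or more, without predicted genes and pseudogenes. As 9 libraries come from 3 populations and share batches, the coefficients describe likeness only. For Hey1 they were Eogt (Pearson r = 0.978), the chemokine gene Cxcl12 (0.975) and the unconventional myosin gene Myo10 (0.974). Eogt encodes a glycosyltransferase that modifies EGF repeats, among them those of Notch receptors. For Dll4 they were Stard13 (0.977), Plekhg1 (0.975) and Adgre5 (0.975), and for Jag1 Slc5a3 (0.935), Ids (0.923) and Snn (0.898). Jag2 was nearest to the membrane protease gene Mmp15 (0.992), Myadm (0.991) and Ankrd28 (0.991), and Notch4 to Actn4 (0.987), the endothelial cadherin gene Cdh5 (0.983) and Ehd2 (0.982). Cdh5 itself averaged 1642, 1558 and 917 CPM in arterial, venous and endocardial libraries. Notch1 was nearest to the agrin gene Agrn (0.997), Atp9a (0.986) and Myo7a (0.980), and Notch2 to the collagen gene Col6a3 (0.985), Ifi27 (0.978) and Ptgs1 (0.972). Hey2 lay closest to Eif1ax (0.949), Sgpp1 (0.942) and Chd2 (0.939), Heyl to Psmc1 (0.963), Thsd1 (0.948) and Sike1 (0.943), and Hes1 to Dennd4c (0.946), Golm1 (0.924) and Atl2 (0.924). Agrn, of these candidates the one nearest to any of the 10, averaged 259, 227 and 424 CPM in arterial, venous and endocardial libraries. Notch1 stood at 290 ± 90.5, 259 ± 79.2 and 456 ± 185 CPM.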

How the data were processed

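RNA of sorted cells was sequenced as single reads. The deposited table holds expected counts per Ensembl gene, made by the authors with RSEM 1.2.3 after CASAVA 1.8.2 and cutadapt 1.3 on GRCm38, per the submitters' processing notes. No aligner or strandedness is stated there. Of the values above 0, 45.5% were not whole, and all were rounded. The test was the quasi-likelihood F test of edgeR 4.0.16 under R 4.3.3, with TMM scaling, robust estimation and a low-count filter at a minimum count of 10. All 9 libraries entered 1 fit with 1 mean per population, and p-values were Benjamini-Hochberg adjusted over 17104 genes. SE was taken as the size of the log2 fold change over the root of F, and 95% intervals use the t quantile of the fit. The log2 CPM used for likeness and deviations had a prior count of 2. The procedure was run on simulated data with known changes. Those counts were drawn without a batch effect, so they cannot speak to shifts shared within a batch. Coordinates, exon lengths and symbols are from GENCODE M21 (GRCm38).

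Batch numbers in the labels equal the replicate numbers, so libraries of a number were taken as paired by batch. Correlations of their deviations from population means ran from 0.0829 to 0.165 in batch 1, from 0.0366 to 0.146 in batch 2 and from -0.0902 to 0.0924 in batch 3. The unblocked fit is reported, with the blocked value where it changes a call. With 1 library of each population in a batch, no test within a batch was possible. Alternatives were RLE scaling, DESeq2 1.42.0, no low-count filter, the block, only the 2 populations compared, no robust estimation and leaving out each library; corrections for GC content were added after the data were seen. The 10 genes and all lists were chosen with earlier results of these data known. The 10 genes are named in every comparison. Other pathway genes are named by rule: the called ones with the smallest adjusted p (up to 6), plus Notch3, Rbpj, Nrarp, Mfng, Lfng and Dll1, and the 3 genes most like each of the 10. Intervals and floors cover counting and library spread only.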

Additional observations from a re-analysis of the deposited data

How the results depend on the processing

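Of the 10 genes, 2, 5 and 4 were called for arterial over venous, arterial over endocardial and venous over endocardial libraries. With the replicate block these became 3, 8 and 7. With the block and a GC correction they became 3, 7 and 7, without Notch1 for arterial over endocardial. That last fit called 232, 2197 and 1984 of all genes. Over all 17104 genes the calls numbered 225, 2312 and 2098 with the block, against 183, 1996 and 1753 without it. The block added Notch2 to the first, Notch1, Notch4 and Hey2 to the second, and Notch1, Notch4 and Jag1 to the third. Without a low-count filter 4 were called for arterial over venous. With 1 library left out the counts ran from 2 to 3, 4 to 6 and 1 to 5; the last was 1 without venous replicate 2 or endocardial replicate 2 and 2 without endocardial replicate 3. Over all genes, 183 were called for arterial over venous, against 354 with DESeq2, 439 without a filter and 120 to 225 with 1 library left out (120 without venous replicate 1). For venous over endocardial 1753 were called, and 1130 to 1871 with 1 library left out (1130 without venous replicate 3). Other pathway genes numbered 2 for arterial over venous, but 1 with RLE scaling, in a fit of only these 2 populations, without robust estimation, and 1 to 2 with 1 library left out. They numbered 5 to 12 for venous over endocardial with 1 library left out (6 without venous or endocardial replicate 2, 5 without venous replicate 3). The cause of these shifts was not tested. Fits with 1 library left out also had fewer samples.

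Differences near 0 changed sign with 1 library left out. For arterial over venous, log2 fold changes ran from -0.01 to 0.43 for Notch1, -0.02 to 0.40 for Notch4, -0.14 to 0.40 for Jag2, -0.24 to 0.03 for Hes1, -0.63 to 0.40 for Notch3 and -0.07 to 0.30 for Mfng. Notch3 ran from -0.14 to 0.23 for arterial over endocardial and from -0.37 to 0.66 for venous over endocardial, and Rbpj from -0.33 to 0.12 in the last. Dividing by the longest transcript in place of merged exons put Notch1 at 56.7%, 56.3% and 78.0% of the receptor level in arterial, venous and endocardial libraries. Notch4 then stood at 42.4%, 40.5% and 15.7%, so that the near-equal coronary shares depended on the length used. Adding Dll1 to the ligand sum, a step added after the data were seen, put Jag1 at 31.3% in place of 55.1% in endocardial libraries. The low counts of Heyl limit its precision.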
